A study of Mus musculus with 82 samples.

Results

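Undissected sections of mouse peritoneal oil granulomas taken 49 days after pristane were compared with sections taken at day 33. The arrays were chosen by their labels, as the whole tissue arrays of study 2 on these days. This gave 6 arrays, 3 specimens at day 49 and 3 at day 33, of 15 whole tissue arrays of study 2 and 82 arrays in the series. All mice were BALB/c.iMycEμ, a strain in which a knocked-in Myc gene sits beside the immunoglobulin heavy chain enhancer Eμ and is expressed in B lineage cells. They were at least 8 weeks old when they received 0.5 ml of pristane, a hydrocarbon oil, in the peritoneal cavity. Both groups thus carried the transgene and the oil, and neither held an untreated or transgene-free mouse. RNA from frozen sections stained with methyl green pyronin went through 2 rounds of linear amplification before labelling. No label tells if the numbered specimens of a day came from separate mice. The p-values thus measure the spread between samples of a day, which may be in part technical. In the main test this spread was pooled over the 15 whole tissue arrays of study 2. Nor do the labels give the place in the abdomen from which each section was cut.

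Pristane oil draws macrophages, neutrophils and lymphocytes into granulomas on the peritoneal surfaces, and in susceptible mice plasma cell tumors arise within this inflamed tissue. The granulomas form on and around mesenteric fat, under a covering of mesothelial cells and near gut wall and vessels that hold smooth muscle. A whole section can therefore hold adipocytes, which store triglyceride, and contractile smooth muscle cells, beside the inflammatory infiltrate. In bulk RNA of this kind, fewer cells of a type and less RNA per cell cannot be told apart.

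Expression was given as log2 values that the authors had normalized by RMA (robust multi-array average), on which a difference of 1 is 2-fold. Of 12393 genes with a probe set of 1 symbol, 7807 lay above the array's median in at least 3 of the 15 whole tissue arrays and were tested. Array medians lay between 7.113 and 7.295 in the 6 arrays. Macrophage and plasma cell transcripts were present in every array, with Csf1r, the receptor for macrophage growth factor, at 12.09 to 13.02 and Jchain, which joins secreted IgA and IgM, at 13.31 to 13.78. The liver transcript Alb stayed at 5.15 to 5.51 and the pancreatic enzyme transcript Cpa1 at 4.61 to 5.12. Xist, made only from an inactive X chromosome, was at 11.54 to 12.32 in all 6 arrays. Specimen 3 stood apart at day 33, with 272 genes at least 2-fold below both other day 33 specimens and 68 above. The RNA quality measure, the difference between 3-prime and 5-prime control probe sets, was 1.46 to 1.49 at day 33 and 1.53 to 1.71 at day 49, with no overlap.

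No gene passed the test between the days. With limma and Benjamini-Hochberg adjustment, 0 of 7807 genes (0.0%) reached an adjusted p of 0.05 in either direction, and the smallest adjusted p was 0.169. At an unadjusted p of 0.05 there were 1612 genes (20.6%), of which 1199 were higher at day 49 (15.4%) and 413 lower (5.29%). In 1413 genes (18.1%) all 3 day 49 arrays lay above all 3 day 33 arrays, and in 330 genes (4.23%) all lay below. Over all genes tested the median log2 difference, day 49 minus day 33, was 0.12. A count without overlap can only stay or grow when an array is left out, here and for the lists below. The growth was largest without day 49 specimen 3, when 2658 genes (34.0%) were higher and 1683 (21.6%) lower without overlap. Without day 33 specimen 3 the lower count was 1272 (16.3%), while leaving out any of the other 4 arrays gave 374 to 480 lower. Leaving out day 49 specimen 3 moved the adjusted counts to 977 genes higher (12.5%) and 556 lower (7.12%), while leaving out any other of the 6 arrays left them at 0.

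The day 49 specimens differed from each other more than the day 33 specimens did. The median SD over all genes was 0.358 at day 49 and 0.237 at day 33, with 0.227, 0.32 and 0.329 on days 7, 17 and 105. At day 49, 57 genes had an SD above 2, against 0 at day 33. Specimen 3 of day 49 was the most like day 33, with a root mean square log2 difference of 0.322 from day 33 specimen 2. Specimen 1 of day 49 was at 0.961 from the same array and specimen 2 at 0.705, while the day 33 specimens differed from each other by 0.251 to 0.556. Fat and smooth muscle genes led this spread: of the 10 genes with the largest SD at day 49, 4 were in the adipocyte list and 3 in the smooth muscle list. All 16 tested adipocyte genes and all 15 tested smooth muscle genes had a larger SD at day 49 than at day 33, as had 67.9% of all genes tested. These SDs are descriptions, and no test of spread was made with 3 arrays a day. The SEs and p-values between the days rest on a variance of each gene pooled over all days, not on the spread of day 49 alone.

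**Figure D1:**
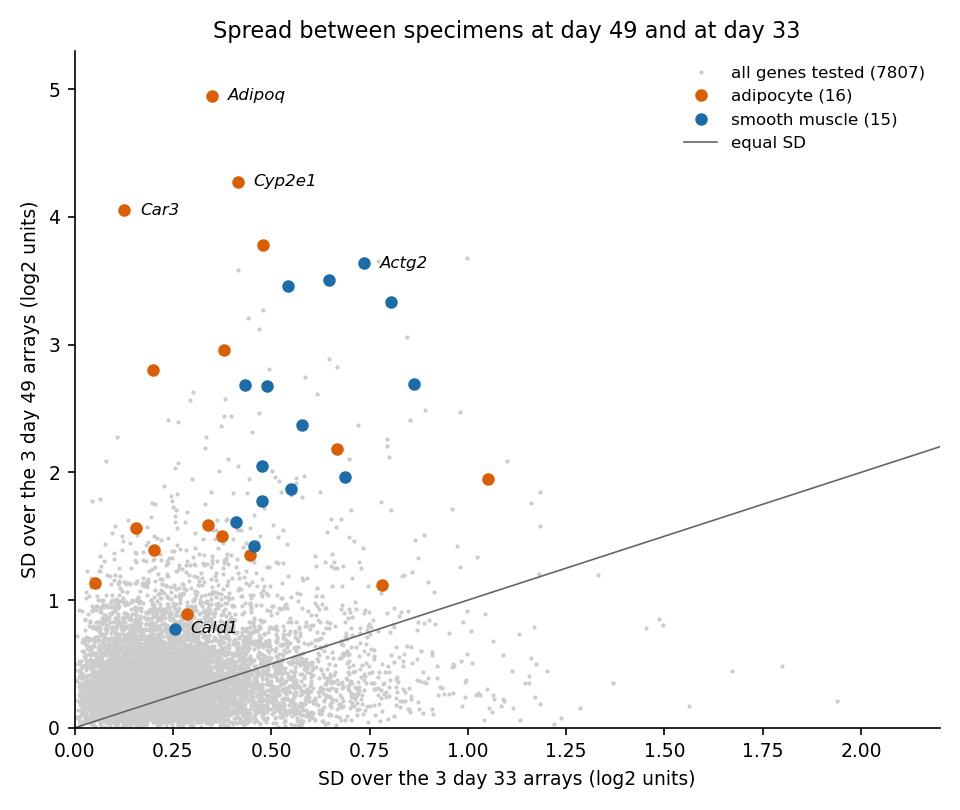
Each point is a gene: the x axis is its SD over the 3 day 33 arrays and the y axis its SD over the 3 day 49 arrays, both in log2 units, with 16 adipocyte and 15 smooth muscle genes coloured over all 7807 genes tested and a line where both SDs are equal. The coloured points lie above the line, from Cald1 with an SD of 0.776 to Adipoq with 4.95 at day 49.

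Fat transcripts were very low in 1 day 49 specimen and high in another. Of 21 adipocyte genes measured, 16 were tested, and the other 5 lay near or under the array median and were not tested. None of the 16 passed (0.0% of all genes did), and none had day 49 arrays clear of day 33 on one side. Their median log2 difference was -0.52, and their median SD was 1.77 at day 49 against 0.362 at day 33. Specimen 1 held the lowest of the 6 values for 14 of the 16 genes, as for 24.8% of all genes tested, and specimen 2 the highest for 13 of 16, as for 17.0% of all genes. The direction of the list rested on specimen 1: without it the median difference was 0.67.

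Adipoq encodes adiponectin, a hormone secreted by fat cells. Its level was 12.55, 12.32 and 11.86 in the day 33 arrays and 4.33, 13.57 and 12.01 in day 49 specimens 1, 2 and 3. Specimen 1 was thus far below every other array and specimen 2 above them all. The value of specimen 1 was at the level of Kdm5d, a Y-linked gene that read 4.15 to 4.58 in these arrays, so no fold is given against it. The difference of the means was -2.27 with an SE of 1.61 and an adjusted p of 0.436. Cyp2e1, a cytochrome P450 that oxidises small solvents and is also made in fat, read 12.53, 12.32 and 11.73 at day 33 and 5.24, 13.11 and 12.06 at day 49. Specimen 1 was again at the bottom, at the level of the liver transcript Alb, and specimen 2 at the top. Car3, a carbonic anhydrase abundant in fat, was 13.89, 13.87 and 13.66 at day 33. In day 49 specimens 1, 2 and 3 it was 6.99, 14.22 and 13.78, so that specimen 1 was far below day 33, specimen 2 a little above it and specimen 3 within its range. Its other probe set gave 12.96, 12.43 and 12.45, then 6.23, 13.74 and 12.62, with the same order of the specimens. Cidec, a protein of the lipid droplet surface, was 10.72, 10.25 and 9.77 at day 33 and 4.56, 11.63 and 10.41 at day 49. The specimens kept the order seen for Adipoq, with specimen 1 again close to the reading of Kdm5d.

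The promoters of Adipoq and Cyp2e1, the genes with the largest spread, are shown because their values kept the same order across the specimens. They are from RefSeq on GRCm38.p6, from 250 bases before to 50 bases after the start site, and capitals mark TATAAA where it was found. Adipoq lies at chr16:23146286-23146585 on the plus strand and Cyp2e1 at chr7:140763569-140763868 on the plus strand, with TATAAA 31 to 26 bases before its start.
Adipoq: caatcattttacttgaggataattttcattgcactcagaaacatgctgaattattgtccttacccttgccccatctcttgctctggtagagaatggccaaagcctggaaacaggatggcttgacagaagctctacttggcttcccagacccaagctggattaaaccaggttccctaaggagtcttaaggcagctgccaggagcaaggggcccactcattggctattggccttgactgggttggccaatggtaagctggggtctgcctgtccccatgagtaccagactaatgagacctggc
Cyp2e1: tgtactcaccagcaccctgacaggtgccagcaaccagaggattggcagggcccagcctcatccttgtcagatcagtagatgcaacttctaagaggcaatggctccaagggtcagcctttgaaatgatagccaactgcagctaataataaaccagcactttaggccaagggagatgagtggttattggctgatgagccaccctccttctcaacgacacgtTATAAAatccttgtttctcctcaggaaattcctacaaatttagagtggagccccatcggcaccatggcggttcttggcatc
TATAAA, searched on both strands, was in the promoters of 3 of 11 adipocyte genes with a sequence (Cebpa, Cyp2e1 and Pparg) and in 13.6% of all 32851 promoters. The match is a description, and its absence in Adipoq says only that these letters are not in that window.

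The remaining adipocyte genes with a wide spread were enzymes and hormones of fat storage. Dgat2, which makes triglyceride, was 12.70, 12.07 and 12.01 at day 33 and 7.24, 12.63 and 12.05 at day 49. Retn, which encodes the hormone resistin, was 10.16, 9.84 and 9.81, then 6.32, 11.86 and 9.74. Both were lowest in specimen 1 by a wide margin, while specimen 3 lay within or next to the day 33 values. Lep, which encodes leptin, was 8.43, 8.22 and 7.19 at day 33 and 4.93, 8.60 and 8.83 at day 49, with specimens 2 and 3 above day 33. Pck1, an enzyme of glycerol and glucose synthesis, was 7.16, 8.35 and 6.26 at day 33 and 4.61, 8.40 and 7.29 at day 49. Its day 33 values already spread by 1.05 (SD, n = 3), the widest of the tested fat genes on that day. Fabp4, the fatty acid carrier of adipocytes and some macrophages, differed less: 12.56, 12.45 and 11.74 at day 33 and 11.66, 14.24 and 12.25 at day 49. Lpl, a lipase of fat and macrophages, was 13.78, 13.75 and 13.49, then 11.15, 13.90 and 13.80. Plin4, a lipid droplet coat protein, was 9.19, 9.28 and 9.19 at day 33 and 9.35, 11.11 and 9.00 at day 49, so that only specimen 2 left the day 33 level. In specimen 1, 10 of the 16 genes lay under the array median of 7.261, as did 7.78% of all genes tested.

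Genes of fatty acid synthesis followed the fat genes. None of the 12 tested lipogenesis genes passed, their median difference was -0.46, and their median SD was 1.81 at day 49 against 0.301 at day 33. Specimen 1 was the lowest of the 6 arrays for 11 of 12, as for 24.8% of all genes tested. Specimen 2 was the highest for 10 of 12, as for 17.0% of all genes. Thrsp, a lipogenic protein of liver and fat, was 13.05, 12.30 and 12.36 at day 33 and 7.16, 13.92 and 12.62 at day 49. Scd1, which desaturates stearic acid, was 14.47, 14.51 and 14.31 at day 33 and 10.38, 14.36 and 14.29 at day 49. In this probe set specimens 2 and 3 stayed at the day 33 level. Its other probe set gave 10.60, 9.94 and 9.60, then 6.66, 11.84 and 9.77, with specimen 2 above every day 33 array. Srebf1, a regulator of lipid synthesis genes, was 9.99, 9.73 and 9.69, then 9.90, 11.49 and 10.05, with a difference of 0.68 and an adjusted p of 0.403. Amy1, an amylase gene with close paralogs that the probe set may not separate, spread alike: 11.08, 10.65 and 9.18 at day 33 and 4.15, 10.89 and 10.07 at day 49. The brown fat list had 7 measured genes, and none reached the level needed for testing.

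**Figure D2:**
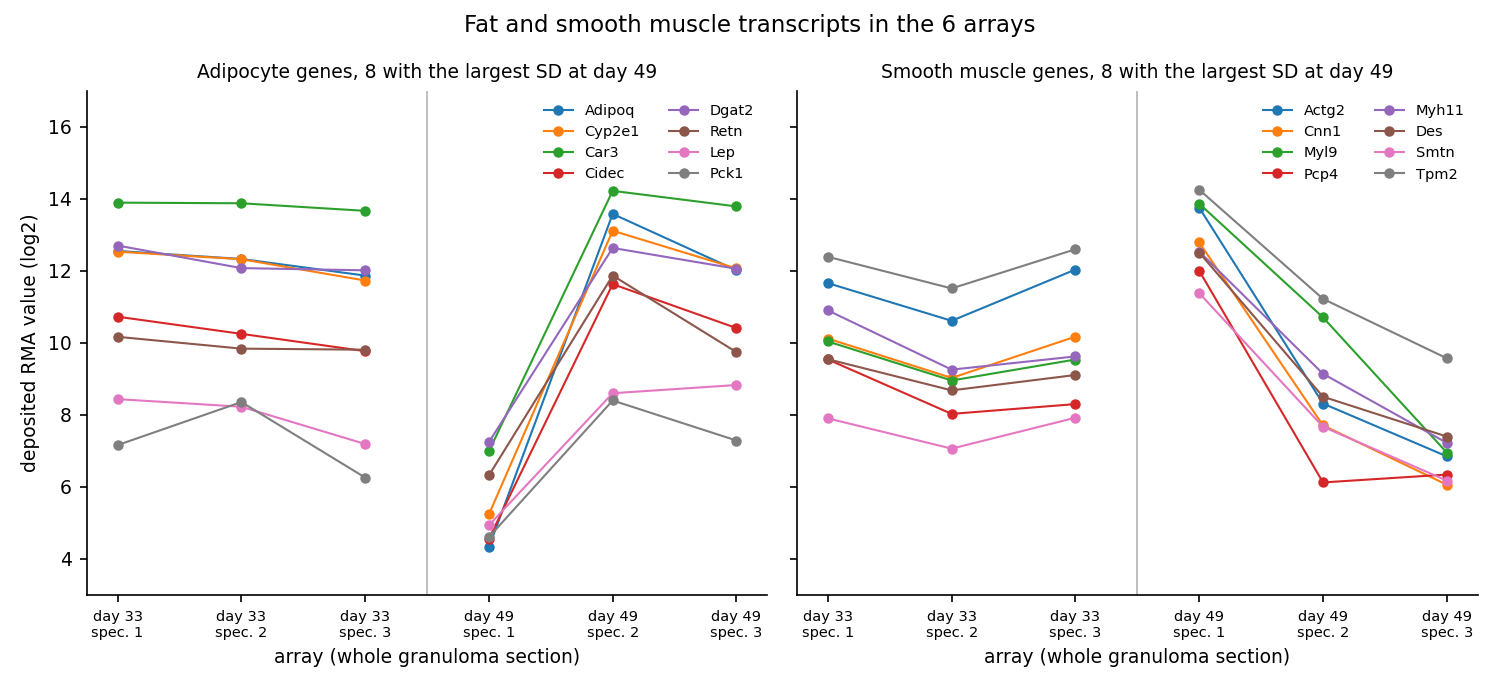
The y axis is the deposited log2 value and the x axis the 3 day 33 and 3 day 49 arrays, with lines joining the values of a gene within a day (specimens have no order) for the 8 adipocyte genes (left) and 8 smooth muscle genes (right) with the largest SD at day 49. Specimen 1 of day 49 sits lowest for the fat genes, at 4.33 for Adipoq, and highest for the muscle genes, at 13.75 for Actg2.

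Smooth muscle transcripts ran the other way between the day 49 specimens: very high in specimen 1 and low in specimen 3. Of 16 genes measured 15 were tested and none passed. Their median difference was -0.29, and their median SD was 2.37 at day 49 against 0.542 at day 33. Specimen 1 was the highest of the 6 arrays for 14 of 15 genes, as for 31.3% of all genes tested, and specimen 3 the lowest for 12 of 15, as for 7.19% of all genes. Which way the list leaned depended on the array left out: its median difference was -1.19 without specimen 1 and 0.57 without specimen 3.

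Actg2, the actin of gut and other visceral smooth muscle, was 11.65, 10.61 and 12.03 at day 33. It was 13.75, 8.31 and 6.85 in day 49 specimens 1, 2 and 3, a 120-fold range, with specimen 1 above and specimens 2 and 3 below every day 33 array. The difference of the means was -1.80 with an SE of 1.63 and an adjusted p of 0.552. Cnn1, calponin, which binds actin in contractile cells, was 10.11, 9.02 and 10.17 at day 33 and 12.78, 7.71 and 6.06 at day 49. Myl9, a light chain of smooth muscle myosin, was 10.03, 8.95 and 9.53 at day 33 and 13.86, 10.70 and 6.95 at day 49. Here specimens 1 and 2 both lay above day 33 and only specimen 3 below it. Myh11, the myosin heavy chain that defines smooth muscle, was 10.90, 9.25 and 9.62, then 12.53, 9.14 and 7.22. Pcp4, a calmodulin regulator, was 9.53, 8.02 and 8.30 at day 33 and 12.00, 6.12 and 6.34 at day 49. Pcp4 thus shared with Actg2 and Cnn1 the pattern of specimens 2 and 3 together below day 33.

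Most other contractile genes kept specimen 1 on top. Des, which encodes desmin, the intermediate filament of muscle, was 9.54, 8.68 and 9.10 at day 33 and 12.50, 8.50 and 7.40 at day 49. Smtn, smoothelin, was 7.90, 7.06 and 7.92, then 11.38, 7.67 and 6.17. Tpm2, a tropomyosin, was 12.38, 11.51 and 12.59, then 14.25, 11.22 and 9.57. All of them had specimen 1 above and specimen 3 below the whole day 33 range. Acta2, the actin of smooth muscle and of myofibroblasts, varied less, at 13.51, 12.63 and 13.26 on day 33 and 14.13, 12.65 and 11.29 on day 49. Mylk, the kinase of myosin light chain, depended on the probe set in specimen 1. The probe set with the highest level had it within the day 33 range, and specimens 2 and 3 below: 13.81, 12.99 and 13.42 at day 33 and 13.66, 10.70 and 11.06 at day 49. Its difference was -1.60 with an adjusted p of 0.259, while the other probe sets gave 0.66 and 0.23. Both of these had specimen 1 above day 33, at 9.82 against 5.88 to 6.53 and at 13.00 against 8.60 to 9.85, and specimens 2 and 3 below it. Tnnt2, the troponin T known from heart muscle, was not in the list and had an SD of 3.66 at day 49, with 8.18, 7.18 and 6.66 at day 33 and 11.17, 4.67 and 5.01 at day 49.

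The promoter of Myl9 is shown as the member of the smooth muscle list in which a CArG box, the motif bound by serum response factor, was found. It lies at chr2:156775214-156775513 on the plus strand (RefSeq, GRCm38.p6), and capitals mark the match 161 to 152 bases before the start.
Myl9: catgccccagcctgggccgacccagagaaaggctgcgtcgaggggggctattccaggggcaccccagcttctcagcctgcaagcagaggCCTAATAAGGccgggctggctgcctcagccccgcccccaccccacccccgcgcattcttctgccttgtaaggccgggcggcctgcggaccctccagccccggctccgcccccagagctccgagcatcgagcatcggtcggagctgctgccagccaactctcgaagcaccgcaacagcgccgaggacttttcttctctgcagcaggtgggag
The CArG box, searched on both strands, was in 1 of 11 smooth muscle genes with a promoter sequence and in 1.63% of all promoters, and in none of the 11 adipocyte genes. No match says only that an exact match to the pattern searched is not within this window. Forms close to that pattern were not searched.

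Skeletal muscle transcripts as a list showed no such spread. Of 29 genes measured only 6 were tested, and the other 23 lay between 3.76 and 7.52 in the 6 arrays. The median SD of these 23 was 0.162 at day 49 and 0.289 at day 33. The defining genes were low in every array without being all at the bottom of this range. The fast myosin gene Myh4 was 4.09, 3.89 and 4.22 at day 33 and 3.81, 3.89 and 3.79 at day 49, and Mylpf, its light chain, 4.68, 4.55 and 4.55, then 5.14, 4.61 and 4.53. Acta1, the actin of skeletal muscle, was 4.85, 4.96 and 5.96, then 5.76, 4.86 and 4.85, and Myl1, another light chain, was 6.05, 5.66 and 5.54, then 5.80, 6.85 and 5.34. Of the 23 untested genes 14 (60.9%) were highest in day 33 specimen 3, as were 53.7% of all 4586 untested genes. The 6 tested genes had a median difference of -0.07 and a median SD of 0.33 at day 49 against 0.361 at day 33, and none passed. Ckm, the muscle creatine kinase, had the widest spread of the 6 at day 49, with 7.86, 7.40 and 8.16 at day 33 and 11.28, 6.73 and 6.91 at day 49. It was thus high in the specimen in which the smooth muscle genes were high. Pygm, among the untested genes, was also highest there, at 5.76, 5.78 and 5.98, then 7.50, 6.25 and 5.62. Eno3, a muscle enolase, was 9.67, 10.04 and 9.39, then 10.48, 10.23 and 9.91 (adjusted p = 0.276). Myoz1, of the muscle Z disc, was 7.57, 7.77 and 8.65 at day 33 and 7.68, 7.64 and 7.58 at day 49. Cox6a2, a muscle subunit of cytochrome oxidase, was 7.21, 7.32 and 8.43, then 7.51, 7.68 and 7.32, and like Myoz1 was highest in day 33 specimen 3. Tpm3, a tropomyosin made in many cells, was 13.01, 13.23 and 12.97, then 12.48, 12.67 and 13.20. Ryr1, the calcium channel of muscle, was 7.72, 7.54 and 7.06 at day 33 and 7.51, 6.49 and 8.36 at day 49. Its SD was 0.937 at day 49 against 0.34 at day 33.

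Mesothelial and endothelial genes also separated specimen 1. None of the 10 mesothelium genes passed, with a median difference of 0.88. Specimen 1 was the highest of the 6 arrays for 9 of them, as for 31.3% of all genes tested. Krt8, a simple epithelial keratin, was 8.56, 7.85 and 7.45 at day 33 and 11.68, 9.90 and 7.77 at day 49. Upk3b, a mesothelial membrane protein, was 10.82, 10.60 and 10.08, then 12.56, 11.81 and 10.20. Specimens 1 and 2 lay above day 33 for both genes and specimen 3 within its range. Without specimen 3, 9 of the 10 genes lay above day 33 without overlap, where 34.0% of all genes then did, and the median difference was then 1.44, against 0.42 without specimen 1. None of the 17 endothelial genes passed, with a median difference of 0.00. Specimen 1 was the lowest of the 6 arrays for 14 of them, as for 24.8% of all genes tested. Kdr, the main receptor of vascular growth factor, was 10.31, 10.21 and 10.10 at day 33 and 7.95, 9.94 and 10.10 at day 49. Tek, the angiopoietin receptor, was 9.39, 9.45 and 8.70, then 6.49, 8.51 and 9.53, so that it too was lowest in specimen 1. Without specimen 1, 8 of 17 endothelial genes had day 49 above day 33 without overlap, where 22.0% of all genes then had. With it the count was 1 of 17, against 18.1% of all genes.

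**Figure D3:**
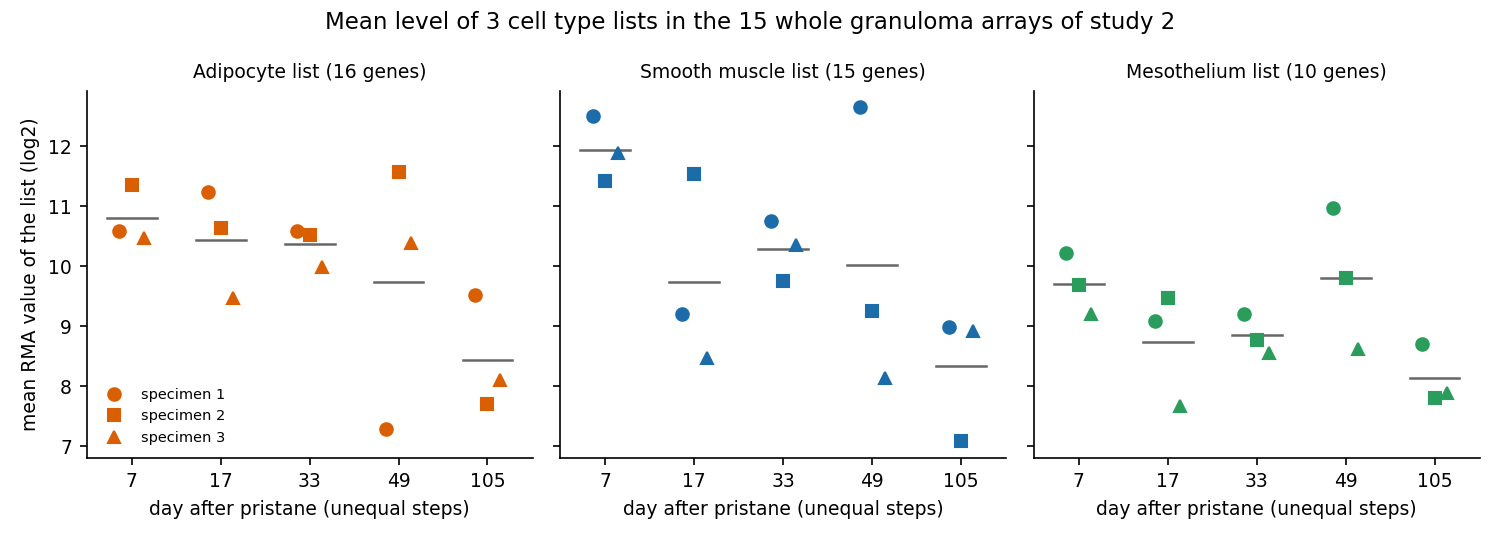
The y axis is the mean log2 value over the tested genes of a list and the x axis the day after pristane, with 1 point per whole granuloma specimen of study 2 and a line at the mean of the day. The adipocyte mean of day 49 runs from 7.282 in specimen 1 to 11.57 in specimen 2, and the smooth muscle mean from 8.146 in specimen 3 to 12.65 in specimen 1.

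Set against the other days, the day 49 range of both lists was wide. The mean level of the adipocyte list was 10.58, 10.52 and 9.988 in the day 33 arrays and 7.282, 11.57 and 10.38 at day 49, and the mean of the smooth muscle list was 10.75, 9.755 and 10.36, then 12.65, 9.251 and 8.146. The median SD of the adipocyte genes was 0.495, 0.838 and 0.909 on days 7, 17 and 105, all under the 1.77 of day 49. For smooth muscle it was 0.658, 1.62 and 1.33, against 2.37. Levels of this kind were also found on other days. The adipocyte mean was 7.704 and 8.1 in day 105 specimens 2 and 3. The smooth muscle mean was 12.51 in day 7 specimen 1 and 7.086 in day 105 specimen 2. Specimen 1 of day 49 was the lowest of all 15 arrays for 8 of 16 adipocyte genes, as for 10.9% of all genes tested. It was the highest of 15 for 9 of 15 smooth muscle genes and 9 of 10 mesothelium genes, as for 13.7% of all genes.

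Each day 49 specimen was then set against the whole day 33 range. Specimen 1 had 833 genes at least 2-fold above all day 33 arrays (10.7%) and 423 below (5.42%). Specimen 2 had 419 above (5.37%) and 209 below (2.68%), and specimen 3 had 19 above (0.243%) and 28 below (0.359%). Genes shared by specimens 1 and 2 but not 3 numbered 297 above (3.8%) and 150 below (1.92%). All 3 specimens shared 3 genes above (0.0384%) and 0 below (0.0%). The genes beyond day 33 in specimen 1 only included 11 of 16 adipocyte genes below, where 3.5% of all genes were, and 11 of 15 smooth muscle genes above, where 6.79% of all genes were. Specimen 2 alone had 8 of 16 adipocyte genes above, where 1.51% of all genes were. Specimens 2 and 3 together had 10 genes below (0.128%), among them Actg2, Cnn1, Mylk, Pcp4 and Tpm1 of the smooth muscle list.

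**Figure D4:**
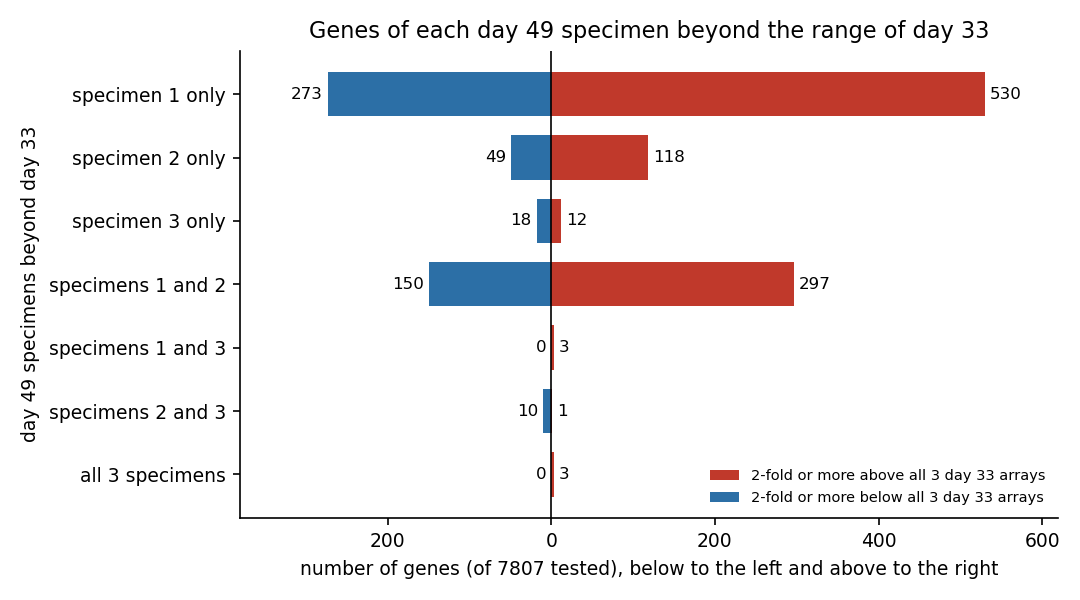
Bars count the genes, of 7807 tested, that lay at least 2-fold above (right) or below (left) all 3 day 33 arrays in the day 49 specimens named on the y axis and in no other. Specimen 1 alone accounts for 530 above and 273 below, and all 3 specimens share 3 above and 0 below.

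The genes that all 3 day 49 specimens had in common were few, and mast cell genes stood among them. The 3 genes at least 2-fold above day 33 in every specimen were Malat1, Cma1 and Cpa3. Cma1 encodes chymase, a protease of mast cell granules, and was 6.75, 6.87 and 6.92 at day 33 and 9.09, 8.16 and 8.45 at day 49. Its difference was 1.71 with an SE of 0.405 and an adjusted p of 0.169. Cpa3, the carboxypeptidase of the same granules, was 6.89, 7.06 and 6.65, then 8.71, 8.24 and 8.68. Tpsb2, a mast cell tryptase, was 7.07, 7.19 and 7.49, then 8.10, 7.90 and 8.39. In all of these genes every day 49 array lay above every day 33 array, as was so for 3 of the 5 tested members of the mast cell and eosinophil list and for 18.1% of all genes. The other 7 of 12 measured members were not tested. Alox15, a lipoxygenase of eosinophils and macrophages, was a member without that order, at 7.84, 6.71 and 6.91 and then 7.75, 6.15 and 6.87. The count was also 3 without day 33 specimen 3, day 49 specimen 1 or day 49 specimen 3. Leaving out an array cannot lower such a count, so this is no test of it.

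B cell genes had the same order in part. Of 9 tested members 5 had all day 49 arrays above day 33, where 18.1% of all genes had. The median difference was 0.78, and none passed. Cd79b and Cd79a encode the signalling chains of the B cell receptor. Cd79b was 8.89, 9.29 and 9.39 at day 33 and 10.97, 10.78 and 10.28 at day 49 (adjusted p = 0.169), and Cd79a was 7.08, 7.80 and 7.73, then 8.54, 8.86 and 9.03. Fcrla, an Fc receptor-like protein of B cells, was 7.11, 7.79 and 6.43, then 8.65, 8.34 and 8.19. All 3 genes were higher in each day 49 specimen in these probe sets, including specimen 3, which otherwise lay near day 33. The other probe sets of Fcrla differed by 0.31 and 0.37, and there the days overlapped. Spib of this list was 7.90, 8.29 and 7.87, then 8.87, 8.39 and 9.50. The mean of the 9 genes was 8.966, 9.082 and 9.596 in day 49 specimens 1, 2 and 3, against 8.267 to 8.646 at day 33. Without day 49 specimen 3 the median difference was 0.51. Without day 33 specimen 3 and day 49 specimen 1 together, 8 of the 9 lay above day 33 without overlap, where 26.2% of all genes then did, and the other 1 below, where 19.8% did. Among T and NK cell genes 2 of 6 had all day 49 arrays above day 33, against the same 18.1% of all genes. These were Cd2 at 7.51, 7.33 and 6.89 and then 8.29, 8.19 and 7.98, and Gzma, a granule protease, at 6.54, 6.56 and 5.79 and then 7.32, 6.86 and 6.79. In these lists as elsewhere the RNA quality measure moved with the day, and its part in the result was not tested gene by gene: with it as a covariate 1 gene of the 7807 passed.

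Cell cycle genes leaned low at day 49. Of 26 tested, 12 had all day 49 arrays below all day 33 arrays, where 4.23% of all genes had, and 9 had an unadjusted p of 0.05 or less with a lower value, where 5.29% of all genes had. None passed, and the median difference was -0.39 against 0.12 for all genes. Mcm5, a subunit of the replicative helicase, was 9.92, 9.82 and 9.51 at day 33 and 8.39, 8.76 and 9.38 at day 49. Rrm2, of ribonucleotide reductase, was 12.02, 11.83 and 11.86, then 10.72, 11.16 and 11.19, and Cdc6, which loads that helicase, was 10.65, 10.30 and 10.08, then 8.63, 9.25 and 9.65. Kif11, a spindle motor, was 8.27, 8.11 and 8.24, then 6.78, 7.65 and 7.57. Specimen 1 was the lowest for each of these probe sets and specimen 3 the closest to day 33 for Mcm5, Rrm2 and Cdc6. Over the 26 genes the mean was 10.07, 9.97 and 9.827 at day 33 and 9.515, 9.776 and 9.531 at day 49. By this mean specimens 1 and 3 were alike, and specimen 2 was the closest to day 33. Rrm2 and Kif11 each had another probe set with specimen 3 lowest and a further probe set with specimen 1 lowest. Without day 33 specimen 3 the count below was 18 of 26, where 16.3% of all genes lay below. Without day 49 specimen 1 as well it was 19 of 26, where 19.8% of all genes then had.

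**Figure D5:**
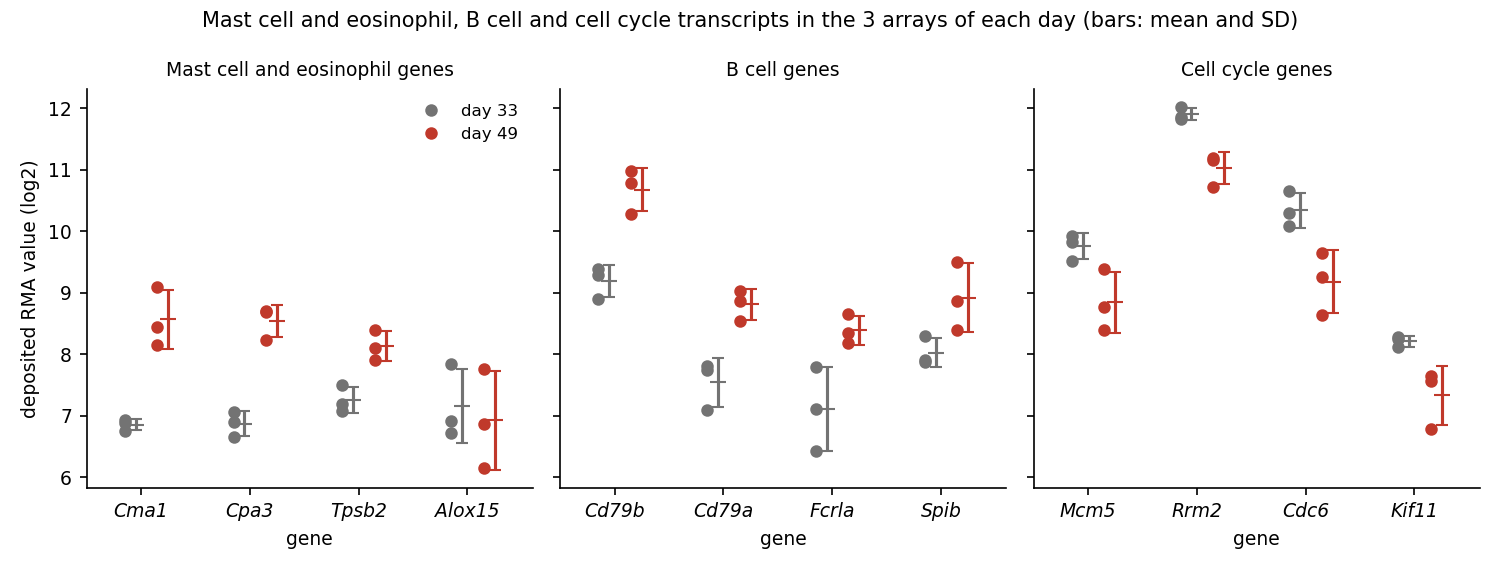
The y axis is the deposited log2 value and the x axis the gene, with 3 points per day (grey for day 33, red for day 49) and the mean and SD beside them for the 4 genes with the smallest p of the mast cell and eosinophil, B cell and cell cycle lists. The days overlap for Alox15 and not for the other 11 genes, as for Cma1 at 6.75 to 6.92 on day 33 and 8.16 to 9.09 on day 49.

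Secretory genes leaned the same way, mainly in specimens 1 and 2, and plasma cell genes did so in part. In the list of unfolded protein response and secretion genes, 6 of 24 lay below day 33 without overlap, where 4.23% of all genes did. In the same list 1 lay above, where 18.1% of all genes did. The median difference was -0.27, and none passed. Pdia4, a protein disulfide isomerase of the endoplasmic reticulum, was 12.82, 12.51 and 12.32 at day 33 and 9.76, 10.47 and 12.43 at day 49, so that specimen 3 lay within the day 33 range. Ern1, the stress sensor that splices Xbp1 RNA, was 7.56, 7.28 and 7.52, then 6.70, 6.66 and 7.08. Without day 49 specimen 3 the count below was 13 of 24, where 21.6% of all genes then lay below, and it was also 13 without day 33 specimen 3, where 16.3% did. Of 15 plasma cell genes 4 lay below day 33 without overlap, against the same 4.23%, and 1 above, where 18.1% of all genes did. Xbp1 of this list was 12.57, 12.82 and 12.72, then 12.92, 13.07 and 12.86, so that every day 49 array lay above day 33. The days overlapped for Sdc1, at 10.41, 10.87 and 10.23 and then 10.35, 10.72 and 10.58, and for Jchain. Specimen 1 alone had Eaf2 and Fkbp11 at least 2-fold above day 33 and Tnfrsf13b at least 2-fold below. Prdm1, the regulator of plasma cell fate, was 9.89, 10.26 and 9.92, then 8.05, 8.51 and 9.76, and Irf4, which works with it, was 11.02, 11.32 and 11.53, then 10.06, 10.49 and 10.93. The immunoglobulin genes showed no such order, with 0 of 15 clear of day 33 on either side and a median difference of -0.07, and probe sets of this family can share transcripts.

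Inflammatory and stress genes gave mixed counts. In the IL-6 and STAT3 list 5 of 16 genes lay above day 33 without overlap, where 18.1% of all genes did, and none passed. Cebpd, a transcription factor of the acute phase, was 9.70, 9.72 and 8.75 at day 33 and 11.34, 11.10 and 10.29 at day 49, and Socs3, a feedback inhibitor of STAT3, was 10.16, 10.65 and 9.39, then 11.12, 11.10 and 10.75. Junb, an immediate early gene, was 7.68, 8.31 and 7.29, then 9.59, 9.18 and 8.65. Of 20 macrophage genes 1 was higher without overlap, against the same 18.1% of all genes. This was Trem2, a lipid-sensing receptor, at 8.37, 8.56 and 8.82, then 9.89, 8.88 and 8.87. Its other probe set differed by 0.14, and there the days overlapped. C1qa and C1qb are chains of the complement component that macrophages make. Both were among 5 of 11 complement genes higher without overlap, where 18.1% of all genes were. C1qb was 10.87, 11.03 and 10.91, then 12.66, 11.89 and 11.54. Its other probe sets differed by 0.45 and 0.35, both with specimen 3 highest at day 49. In the second of them the days overlapped. Of 10 neutrophil genes 1, Csf3r, the receptor for granulocyte growth factor, was higher without overlap, where 18.1% of all genes were. S100a9, a calcium-binding protein of neutrophils, was 9.13, 8.99 and 8.99 at day 33 and 12.92, 11.29 and 8.77 at day 49, so that specimens 1 and 2 were high and specimen 3 was not. Ltf and Ngp of the same list went the other way, with differences of -1.32 and -1.52. Ltf was 9.65, 7.18 and 9.44, then 7.08, 7.79 and 7.45. Ngp was 11.74, 8.89 and 11.83, then 8.79, 9.53 and 9.58, and the days overlapped for both. For collagen and fibroblast genes the counts were 2 of 22 higher and 3 lower, where 18.1% and 4.23% of all genes were.

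Among all genes, those with the smallest p were also short of the threshold. Ndufv3, a subunit of respiratory complex I, was 11.22, 11.23 and 11.15 at day 33 and 12.45, 12.36 and 11.86 at day 49, with a difference of 1.02, an SE of 0.193 and an adjusted p of 0.169. Malat1, a long nuclear RNA, was 9.74, 10.32 and 9.62, then 11.95, 11.74 and 11.39, and 3 of its other probe sets differed by 2.25, 2.03 and 0.81 while the fourth differed by 0.15. Atf5, a transcription factor of the stress response, was 6.75, 7.07 and 6.71, then 8.70, 8.70 and 7.64. Abhd6, a monoacylglycerol lipase, had a difference of 1.61, and Neu1, a lysosomal sialidase, one of 1.40, although its other probe sets gave -0.30 and 0.28. On the lower side, Tmem39a, a membrane protein, was 10.50, 10.38 and 10.27, then 9.12, 9.36 and 9.96. Dtl, which marks replication proteins for destruction, was 10.22, 9.83 and 9.58, then 7.81, 8.36 and 9.01, and Pmaip1, a cell death gene that p53 controls, was 9.61, 9.65 and 9.36, then 6.35, 7.22 and 9.28. Unc5b, a netrin receptor, was 9.83, 9.91 and 9.76, then 7.72, 8.07 and 9.38. In each of these the day 49 arrays lay clear of day 33, with specimen 3 nearest to it. Srsf2, a splicing factor, was 11.95, 11.84 and 11.28, then 10.71, 10.80 and 10.91, but its other probe sets gave 0.25, 0.43 and -0.50, so its direction was uncertain.

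Control probe sets for 18S ribosomal RNA moved with the specimens as well. The probe set for the middle of the molecule was 11.06, 9.59 and 10.15 at day 33 and 13.68, 13.25 and 11.18 at day 49, with specimens 1 and 2 highest. The order is that of the 297 genes above day 33 in specimens 1 and 2, whose mean level was 8.605, 8.625 and 8.399 at day 33 and 10.46, 10.05 and 8.788 at day 49, a pattern that the choice of these genes fixed. The part of RNA quality in these genes was not tested.

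Captured plasma cells of the same specimen numbers had lower levels of both lists, but not of every member. The mean of the 16 adipocyte genes was 5.181 to 6.219 in the captured samples of both days, and that of the 15 smooth muscle genes 5.516 to 6.981. Of the adipocyte genes 11 of 16 lay under the median of the tested genes in all 6 captured samples, and of the smooth muscle genes 8 of 15. Adipoq was 3.49, 6.00 and 3.11 in the captured cells of day 49 specimens 1, 2 and 3. Fabp4 and Lpl of the fat list and Tpm2 and Cald1 of the smooth muscle list lay above that median in all 6, with Lpl at 9.79 to 11.83 and Cald1 at 9.43 to 11.03. Acta2 was 10.20, 10.53 and 8.72 at day 33 and 10.21, 6.51 and 8.77 at day 49 in these cells. The captured sample of day 49 specimen 2 stood apart, with 2508 of 7807 genes (32.1%) at least 2-fold below every other captured sample of the 2 days.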

How the data were processed

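Whole tissue RNA of pristane granulomas was hybridized to Affymetrix mouse arrays. For each of 82 arrays the authors deposited log2 values of 22690 probe sets. The submitters' processing notes name RMA and Partek, whose versions are not given in the sources consulted. RMA fits all arrays of a set together and compresses values near background, which can understate differences of low genes. Scanner data were left out.

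Gene symbols came from the platform's annotation table: 20393 probe sets had 1 symbol, 691 several and 1606 none, 64 were controls, and 20364 matched a current symbol. Among several probe sets of a gene, the one with the highest mean in the 15 whole tissue arrays of study 2 stood for it. Genes above the array median in at least 3 of the 15 were tested. All 5 days entered a linear model (limma 3.58.1, R 4.3.3) with 10 residual degrees of freedom and moderated variances, contrast day 49 minus day 33, Benjamini-Hochberg adjusted p at or under 0.05, checked on simulated data. Python 3.11.15 with pandas 2.3.3 did the rest. No pair of the 6 arrays was a duplicate (at most 203 of 22690 values identical).

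The members and the gene lists were chosen with earlier results of these data known, so lists get counts and medians only. Named were, where nothing passed, the 5 smallest p in each direction, the 10 largest SDs at day 49, members of the fat and muscle lists (array values for up to 8 of each by SD), and up to 4 members of other lists by smallest p. The array values of Fabp4, Lpl, Plin4, Acta2, Mylk and Pygm were added after they were seen, and Myh4, Mylpf, Acta1 and Myl1 as defining markers. The immunoglobulin list held the symbols of that family. The specimen number did not pair the samples (correlations of the deviations 0.0, -0.02 and -0.16). Alternatives were other normalizations, filters, probe sets, variance models, samples in the fit, covariates and leaving out each array. Leaving out day 33 specimen 3 and day 49 specimen 1 together, or the captured sample of day 49 specimen 2, was chosen after the data were seen. The number of arrays limits the precision.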

Additional observations from a re-analysis of the deposited data

Results flagged for a closer look

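H2-DMa and Cd74, genes of MHC class II antigen presentation, were the only genes among those named here in which the days did not overlap in either tissue and the whole granuloma and the captured plasma cells lay on opposite sides. Other genes differed more between the tissues, such as Malat1 by 3.13, whose days overlapped in the captured cells. H2-DMa, which loads peptides on class II molecules, was 8.84, 8.79 and 8.88 in the whole granuloma of day 33 and 10.45, 9.85 and 9.95 at day 49, while the captured cells were 7.81, 7.94 and 7.65 and then 7.56, 7.00 and 7.28. The day 49 minus day 33 difference of the whole granuloma exceeded that of the captured cells by 1.77, and the limma test of this difference gave an adjusted p of 0.147. Cd74, the invariant chain, was 11.78, 11.89 and 11.47 and then 12.39, 12.17 and 11.96 in the whole granuloma, and 8.87, 9.30 and 9.15 and then 8.79, 7.08 and 8.12 in the captured cells. The difference of the differences was 1.57, with an adjusted p of 0.192. The captured sample of day 49 specimen 2, which held the lowest value of both genes, stood apart from the rest, with 2508 genes (32.1%) at least 2-fold below every other captured sample. Rpl7, a ribosomal protein, read 8.71 in it and 13.01 to 13.12 in the others. Without this sample the differences were 1.65 for H2-DMa (adjusted p = 0.4) and 1.11 for Cd74 (adjusted p = 0.514). Neither passed with or without it, and 0 of 7807 genes passed this test between the tissue types.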

How the results depend on the processing

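The counts of genes past the threshold, 0 higher and 0 lower, stayed at 0 and 0 with quantile normalization, median centring, the 6 arrays alone, either other filter, the probe set of largest interquartile range, an intensity trend and the adipocyte mean as a covariate. With the specimen number as a replicate block they were also 0 and 0, and with the 3-prime to 5-prime difference as a covariate 1 and 0. Over all specimen averages of both studies and tissue types, with the specimen as a random block, 132 genes were higher and 18 lower, and 147 of these 150 were among the 1533 called without day 49 specimen 3. Array weights gave 2370 higher and 2069 lower, but their estimation did not converge, so these counts were not used. Leaving out 1 array gave 0 to 977 higher and 0 to 556 lower. The median SD at day 49 then ranged from 0.903 to 2.42 for the adipocyte list, 0.877 to 3.31 for smooth muscle and 0.156 to 0.456 for skeletal muscle. The lowest values of the fat and smooth muscle lists, 0.903 and 0.877, came from leaving out day 49 specimen 1, alone or together with day 33 specimen 3. The skeletal muscle SD was 0.165 without a filter and 0.574 with the other choice of probe set. The median differences ranged from -1.13 to 0.67 (adipocyte), -1.19 to 0.57 (smooth muscle) and -0.20 to 0.13 (skeletal muscle) when 1 array was left out, and with array weights the adipocyte median was 0.48. The cause of these shifts was not tested beyond the arrays left out.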

Other observations

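Genes of respiration and translation differed between the day 49 specimens as well. Of 17 oxidative phosphorylation genes none passed, with a median difference of 0.34. Atp5c1, a subunit of ATP synthase, was 12.23, 12.24 and 12.22 at day 33 and 13.19, 12.92 and 12.30 at day 49, while Atp5b, another subunit, was 13.75, 13.61 and 13.54 and then 12.92, 12.98 and 13.48. The subunits of 1 enzyme thus lay on opposite sides of day 33. Rpl19, a ribosomal protein, was 12.93, 12.91 and 12.86, then 14.07, 13.87 and 12.92, with specimen 3 at the day 33 level.

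The genes that set specimens 1 and 2 of day 49 apart from day 33 also had other levels on the other days. They were chosen against day 33, so a part of any distance from day 33 on the other days is fixed by that choice. The 297 genes above day 33 in these specimens had a mean level of 9.579, 9.636 and 9.62 at day 7 and 8.992, 9.598 and 9.648 at day 17, and 8.995, 8.787 and 8.725 at day 105, against 8.399 to 8.625 at day 33. The 150 genes below day 33 had 9.269, 9.128 and 9.369 at day 7 and 10.09, 9.229 and 9.094 at day 17, and 9.958, 10.26 and 10.09 at day 105, against 10.23 to 10.57 at day 33. The 18S middle probe set was 13.12, 13.38 and 12.07 at day 7 and 11.34, 13.23 and 12.55 at day 17, and 12.14, 10.82 and 10.27 at day 105, and its part in these levels was not tested.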
